A study of Mus musculus with 2 samples.

Results

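The small leucine-rich proteoglycans decorin (Dcn), lumican (Lum), biglycan (Bgn), fibromodulin (Fmod), osteoglycin (Ogn), prolargin (Prelp), asporin (Aspn), osteomodulin (Omd) and podocan (Podn) were described in adipocyte precursor cells of suckling mice. They are 9 of the 27998 genes in the count matrix and were taken by gene symbol. Wild-type pups aged 12 days, cross-fostered onto dams with milk fat of either high or low n-6/n-3 ratio (of polyunsaturated fatty acids, PUFA), gave the subcutaneous adipose tissue for flow sorting. The labels give 1 sample of 3000 sorted cells for each of these 2 conditions, put into droplet capture (10x Genomics 3′ version 2), and the labels describe the cells both as fresh and as cryopreserved in serum with DMSO and thawed, with permeable cells removed. Barcodes carry suffix 1 or 2, which the labels do not link to a diet: the suffixes are called library 1 and library 2 here, and diets were not compared. A condition has a single library and hence no replicate spread, so no p-value was computed, and every interval given is a 95% interval for counting error only.

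Small leucine-rich proteoglycans are secreted proteins of the extracellular matrix whose core is built from leucine-rich repeats, and most carry chains of chondroitin, dermatan or keratan sulfate. They bind fibrillar collagens and set how fibrils assemble and how thick they become, and several of them bind growth factors such as TGF-beta. Decorin, biglycan and asporin form class I, fibromodulin, lumican, prolargin and osteomodulin class II, and osteoglycin belongs to class III and podocan to class V. In adipose tissue they are made mainly by fibroblast-like stromal cells, the population that includes the adipocyte precursors.

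Several members lie side by side in the genome. In the GENCODE annotation of GRCm38 (mm10), Aspn (chr13:49544443-49567565), Omd (chr13:49582462-49592822) and Ogn (chr13:49608046-49624501) follow each other on the plus strand, with gaps of 14896 and 15223 bases. All 3 overlap Cenpp on the opposite strand, and the sources used here do not say whether the authors' counting used strand. Dcn (chr10:97479609-97518143) and Lum (chr10:97565128-97572703) are separated by 46984 bases on the plus strand. Prelp (chr1:133910304-133921414, minus strand) and Fmod (chr1:134037254-134048277, plus strand) are separated by 115839 bases. Prelp also overlaps the annotated gene Gm15851 on the opposite strand. No protein-coding gene is annotated inside any of these 4 gaps. Bgn is on the X chromosome (chrX:73483602-73495933, plus strand). Podn (chr4:108014791-108096445, minus strand) overlaps Scp2 on the same strand, so its counts are less certain than those of the other members.

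The 250 bases upstream of the RefSeq start (GRCm38.p6) are shown for 6 members. They were chosen because Bgn and Podn differed from Dpp4-type progenitors in the opposite way to Prelp, Aspn, Omd and Ogn. These differences were seen in committed or F3-type cells, classes described in the results that follow. Aspn was lower in F3-type cells (log2 -0.72) but not in committed cells (log2 0.01). Dcn and Lum, also higher in both classes, had no entry in the promoter table, so the higher side is shown for Bgn and Podn only. Both strands were searched with TATAAA for the TATA box, with GGGCGG for the GC box, with CCAAT for the box of that name and with TGANTCA for the AP-1 site, and capitals mark each match. The windows are chrX:73483351-73483600 for Bgn, chr4:108031955-108032204 (minus strand) for Podn, chr1:133921402-133921651 (minus strand) for Prelp, chr13:49544193-49544442 for Aspn, chr13:49582212-49582461 for Omd and chr13:49607765-49608014 for Ogn.
Bgn: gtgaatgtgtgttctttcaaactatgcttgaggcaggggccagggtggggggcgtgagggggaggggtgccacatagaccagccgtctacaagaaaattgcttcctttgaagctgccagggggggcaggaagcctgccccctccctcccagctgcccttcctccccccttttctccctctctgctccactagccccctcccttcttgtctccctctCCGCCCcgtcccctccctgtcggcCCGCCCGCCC
Podn: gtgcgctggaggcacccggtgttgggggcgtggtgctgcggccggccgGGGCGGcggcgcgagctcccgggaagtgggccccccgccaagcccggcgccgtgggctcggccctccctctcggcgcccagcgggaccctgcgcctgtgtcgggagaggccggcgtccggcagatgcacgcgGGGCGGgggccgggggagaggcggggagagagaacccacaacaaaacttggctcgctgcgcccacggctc
Prelp: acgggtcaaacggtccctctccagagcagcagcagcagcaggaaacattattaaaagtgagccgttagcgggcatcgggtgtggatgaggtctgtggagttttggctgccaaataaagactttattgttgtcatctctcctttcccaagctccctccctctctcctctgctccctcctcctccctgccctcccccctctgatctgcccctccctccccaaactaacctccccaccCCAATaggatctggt
Aspn: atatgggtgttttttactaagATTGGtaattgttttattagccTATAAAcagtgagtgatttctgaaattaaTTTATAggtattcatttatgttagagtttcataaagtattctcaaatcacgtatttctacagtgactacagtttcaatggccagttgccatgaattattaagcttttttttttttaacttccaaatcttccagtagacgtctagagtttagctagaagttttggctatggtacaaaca
Omd: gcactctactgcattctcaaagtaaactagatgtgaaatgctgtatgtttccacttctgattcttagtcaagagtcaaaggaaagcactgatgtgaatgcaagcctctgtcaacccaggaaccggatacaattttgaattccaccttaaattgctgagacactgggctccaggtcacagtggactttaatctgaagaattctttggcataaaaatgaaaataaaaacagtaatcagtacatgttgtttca
Ogn: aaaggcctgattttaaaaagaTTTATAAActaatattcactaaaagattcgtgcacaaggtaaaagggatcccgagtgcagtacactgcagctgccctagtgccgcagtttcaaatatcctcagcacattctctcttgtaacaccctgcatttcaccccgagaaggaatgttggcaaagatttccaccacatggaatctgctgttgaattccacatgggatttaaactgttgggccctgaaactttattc

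The windows differed in base composition. The G and C share was 64.4% for Bgn and 78.0% for Podn, against 55.6% for Prelp, 42.0% for Ogn, 38.4% for Omd and 30% for Aspn, and the median over the 32851 promoters of the table was 52.4%. Bgn held 3 GC boxes within its last 34 bases, of which 2 overlap by 2 letters, and Podn held 2, while 32.7% of all promoters held at least 1. Aspn held 2 TATA boxes and 1 CCAAT box, and Ogn held 2 TATA boxes that overlap, all between 178 and 229 bases before the start. Prelp held 1 CCAAT box and Omd none of the 4 motifs. Of all promoters, 12.4% held a TATA box, 33.8% a CCAAT box and 6.75% an AP-1 site. A second RefSeq start of Podn and the Fmod window, with a G and C share of 51.2%, held no match and are not printed. These matches describe letters in the window and say nothing of binding.

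The matrix held 6905 barcodes and 85584123 UMIs (unique molecular identifiers, each counting 1 captured transcript), and 6873 cells were kept, 3301 in library 1 and 3572 in library 2, more in each than the 3000 cells that the labels give as input. Their median was 12962 UMIs in library 1 and 12109 in library 2. Clustering, in which the 9 genes took no part, gave 9 clusters, of which 7 with 6760 cells were of the precursor lineage. Clusters 0 and 2 (3194 cells) carried markers of Dpp4-type progenitors, the interstitial cells regarded as the least committed, with 10 and 11 of 12 markers raised. Cluster 1 (1432 cells) carried 11 of 12 markers of committed preadipocytes, such as Col15a1. Cluster 5 (323 cells) carried 6 of 8 markers of F3-type stromal cells, and its leading genes included Mgp, Ifitm1, Vtn and Mbp, of which Mbp is known as a myelin gene. Cluster 6 (256 cells) was cycling, with 14 of 14 markers raised, and also raised 6 of 12 Dpp4-type and 4 of 5 erythroid markers. Clusters 3 (845 cells, led by Scg3, Ccl2, Idi1, Smpd3 and Hmgcs1) and 4 (710 cells, led by Cilp, C1qtnf3, Eln, Txnip and Hspa1a) stayed unnamed. Cluster 4 raised 5 of 8 F3-type markers, among them F3, which cluster 5 did not raise, but fewer than 2 of these were among its 20 leading genes, as a name required. Cluster 7 (64 cells, macrophage and erythroid genes) and cluster 8 (49 cells, endothelial genes) are outside the lineage. Cluster 8, called endothelial-like, also raised 6 of 8 mural, 6 of 8 adipocyte, 8 of 12 committed and 5 of 5 erythroid markers. Its values may therefore not be those of endothelial cells alone.

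Together the 9 genes made up 0.928% of all UMIs of precursor cells, 9333 counts per 1000000 UMIs (CPM) in library 1 and 9225 CPM in library 2. Because UMIs count transcripts by their 3′ ends, CPM was not divided by gene length, and levels are compared between genes only on that scale. The sum was lowest in cycling cells (7653 CPM) and highest in cluster 4 (11500 CPM), with 8608 CPM in Dpp4-type, 10202 CPM in committed and 10858 CPM in F3-type cells. The mix changed as well as the sum: Bgn supplied 4.80% of the sum in cluster 2 and 16.6% in F3-type cells. The share of Lum ranged only from 12.2% in cluster 4 to 14.3% in committed cells.

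Of the 8 members that reached 10 CPM in at least 1 precursor cluster, 4 (Bgn, Aspn, Omd and Podn) had a highest cluster more than 2-fold above the lowest. Over all 7890 genes tested in the same way the share was 30.2%. Bgn had the widest range of these 4, at 4.35-fold, followed by Omd at 2.81-fold, Podn at 2.65-fold and Aspn at 2.18-fold. Ogn (1.96-fold), Prelp (1.79-fold), Lum (1.44-fold) and Dcn (1.38-fold) varied less. Fmod stayed under 10 CPM everywhere and was left out of these counts.

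**Figure D1:**
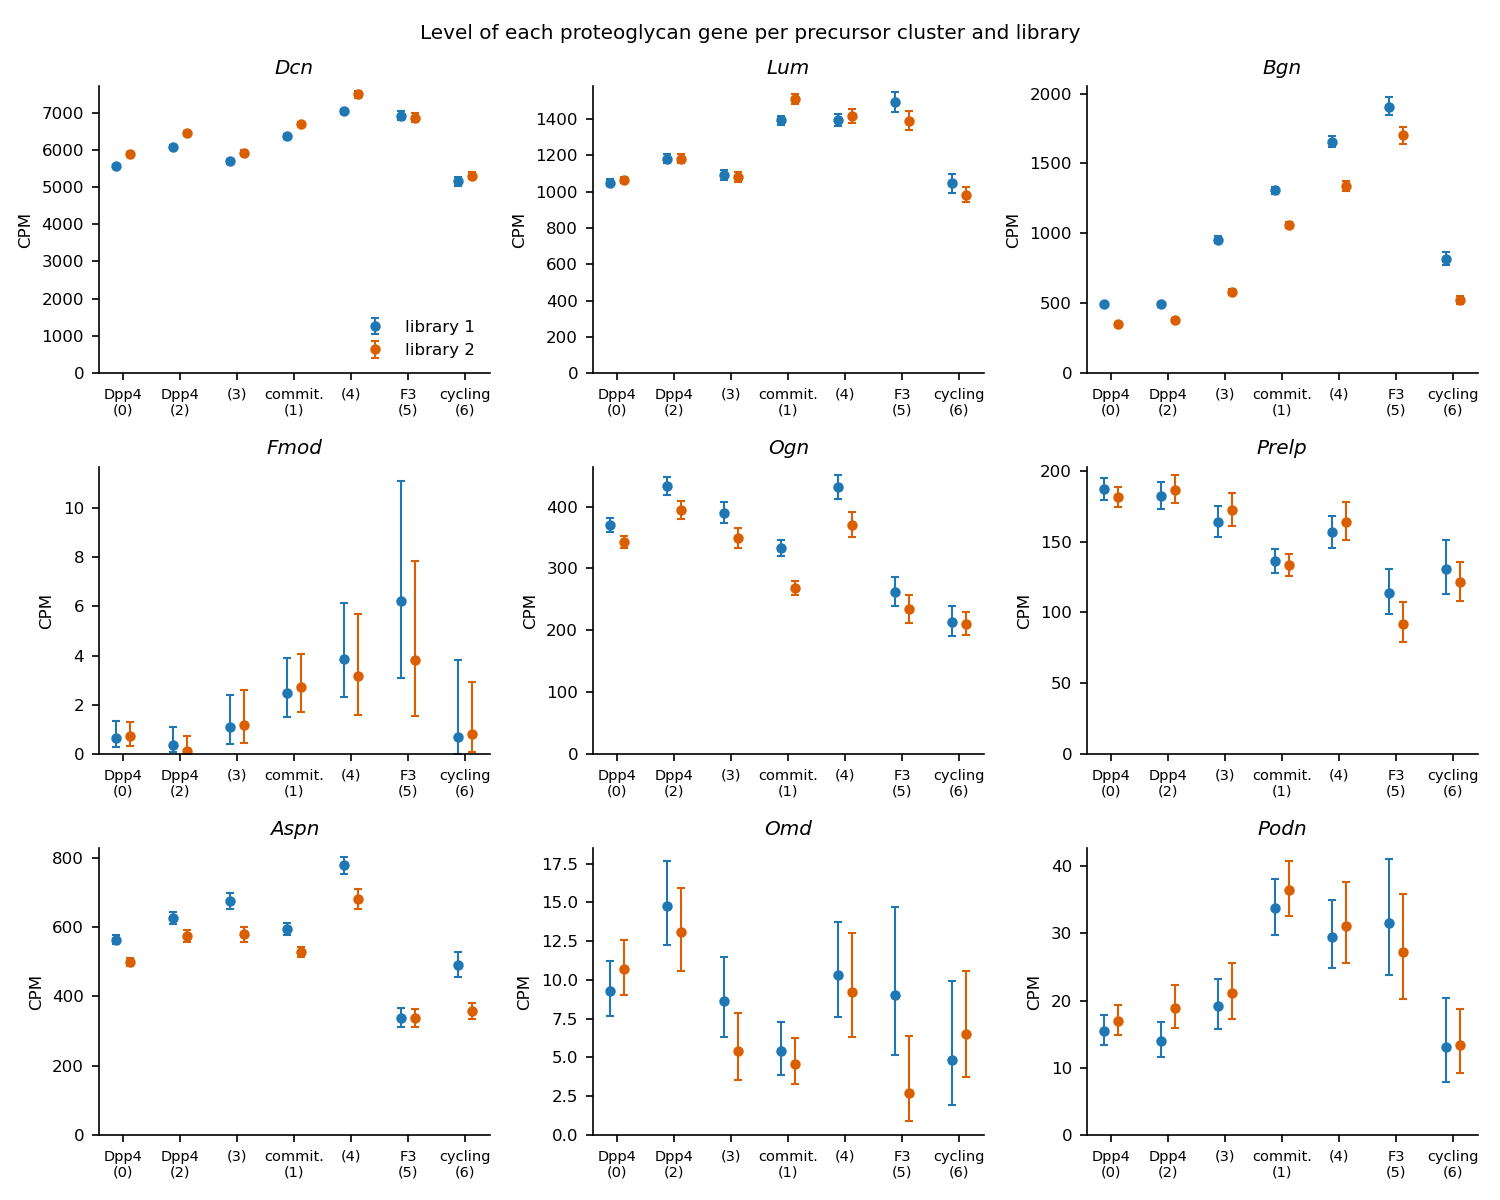
Level of each gene in CPM (linear axis from 0, scaled per gene) in the 7 precursor clusters, with library 1 in blue and library 2 in orange; bars are 95% Poisson intervals, and cluster numbers stand in brackets. Bgn runs from 349 CPM (cluster 0, library 2) to 1907 CPM (F3-type, library 1), and is lower in library 2 in all 7 clusters, while Dcn and Lum stay within a narrow band.

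Biglycan, a class I proteoglycan that binds collagen and can act as a ligand of Toll-like receptors when it is released from the matrix, separated the precursor states most clearly. Its level in Dpp4-type cells was 491 CPM in library 1 and 359 CPM in library 2. In committed cells the levels were 1309 and 1057 CPM, in cluster 4 they were 1656 and 1338 CPM, and in F3-type cells 1907 and 1701 CPM. Cluster 3 lay between, at 954 and 580 CPM, and cycling cells stood at 819 and 524 CPM. Within each library the 3 highest clusters came in the same order, F3-type, cluster 4 and committed, and none of their intervals overlapped those of the Dpp4-type clusters. Over both libraries neighbouring clusters in the order of Bgn levels were apart beyond counting error, but the order of the Dpp4-type clusters 2 (437 CPM) and 0 (415 CPM) did not hold in each library: they were level in library 1 (491.1 and 491.5 CPM) and apart in library 2 (378 and 349 CPM).

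The rise of Bgn was spread over the cells of a class. After each cell was thinned to 7463 UMIs, which left out 375 cells of library 1 and 312 of library 2 that were shallower, the median Dpp4-type cell held 3 Bgn UMIs in library 1 and 2 in library 2. The median committed cell held 9 and 7, the median cell of cluster 4 held 12 and 9, and the median F3-type cell held 14 and 11. Thinning kept 2934 of 3194 Dpp4-type, 1320 of 1432 committed and 554 of 710 cluster 4 cells. A larger part of cluster 4 was thus left out for its depth. The 25th percentile of committed cells (6 and 5 UMIs) was above the 75th percentile of Dpp4-type cells (5 and 4 UMIs). In cluster 3 the cells were more mixed, with a 10th to 90th percentile of 1 to 12 UMIs over both libraries. The variance was 4.02 times the mean, against 1 to 6 UMIs and 1.82 times in Dpp4-type cells. These values pool libraries whose cluster 3 means differed (7.06 and 4.19 UMIs). Library 1 alone had 10th and 90th percentiles of 2 and 14 UMIs, beside 1 and 7 in Dpp4-type cells. For library 2 these were 1 and 8, beside 0 and 5. Cluster 3 also had the highest median doublet score of the precursor clusters (0.0918), and the part of doublets in its spread was not tested. The share of thinned cells with at least 1 Bgn UMI was 91.8% in Dpp4-type and 99.8% in committed cells, beside 92.1% of 38 endothelial-like and 70.6% of 34 macrophage and erythroid cells. Unthinned, the shares were 96.9% and 99.9%, at median depths of 13326 and 11221 UMIs, beside 100% in cluster 8 (19074 UMIs) and 76.6% in cluster 7 (8632 UMIs). Endothelial-like cells (cluster 8, with mixed markers) stood at 423 CPM of Bgn, the level of Dpp4-type cells, so a single UMI does not tell these cells apart.

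**Figure D2:**
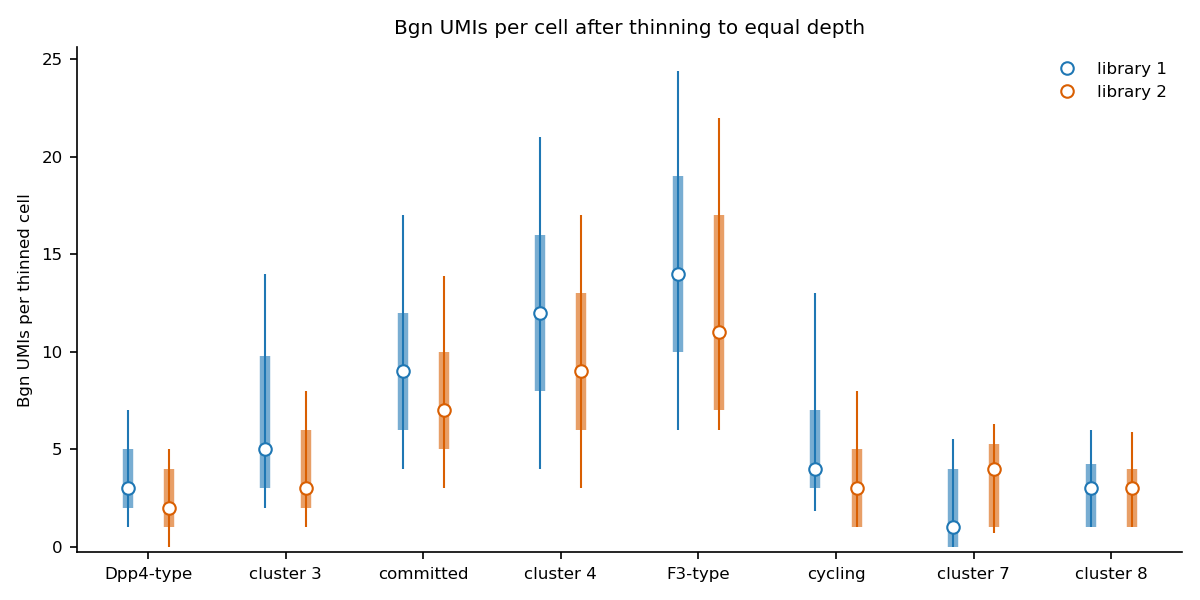
Bgn UMIs per cell after thinning to 7463 UMIs, in each class of cells, with library 1 in blue and library 2 in orange; circles are medians, thick bars the 25th to 75th and thin lines the 10th to 90th percentiles of cells. Median values rise from 3 and 2 UMIs in Dpp4-type cells to 14 and 11 UMIs in F3-type cells, and clusters 7 and 8, outside the lineage, hold 8 to 26 cells per library.

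Compared with Dpp4-type cells, committed cells had more Bgn and Podn and less Omd. Genes were called with a fold of at least 2, an interval that left out no change, and 10 CPM or more in 1 of the 2 sums. By this rule 3 of the 8 members measured were called, beside 9.65% of 6904 genes, with 4.59% called higher and 5.06% lower. Bgn was 2.78-fold higher (log2 1.48, interval 1.45 to 1.51), with log2 values of 1.41 in library 1 and 1.56 in library 2. Podn, whose product podocan binds collagen, stood at 14.9 CPM (library 1) and 17.7 CPM (library 2) in Dpp4-type cells and at 33.8 and 36.5 CPM in committed cells. It was 2.15-fold higher (log2 1.11, 0.94 to 1.27), and the ranges of the 2 classes did not overlap. Omd, best known as a keratan sulfate proteoglycan of bone, stood at 11.5 CPM in both libraries of Dpp4-type cells and at 5.39 and 4.59 CPM in committed cells, 80 UMIs in all. It was 2.32-fold lower (log2 -1.21, -1.57 to -0.87).

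The other members moved less between these classes. Lum stood at 1104 and 1106 CPM in Dpp4-type and at 1393 and 1511 CPM in committed cells, a log2 difference of 0.40. Dcn, the most abundant member, stood at 5771 and 6085 CPM in Dpp4-type and at 6357 and 6695 CPM in committed cells (log2 0.14). Ogn was at 396 and 360 CPM against 333 and 268 CPM (log2 -0.34), and Prelp at 185 and 183 CPM against 136 and 133 CPM (log2 -0.45). Aspn showed no difference beyond counting error on this scale, at 589 and 526 CPM against 594 and 528 CPM (log2 0.01, -0.03 to 0.04). The median of all genes was -0.14 in this comparison and -0.02 after TMM scaling, which added 0.11 to each value: Aspn was then 0.12 higher and Ogn 0.23 and Prelp 0.34 lower, with the same 3 members called beside 9.59% of genes. The marker list of tendon, cartilage and bone also stood higher in committed cells, at 154 CPM summed over 12 genes against 47.1 and 34.4 CPM in the Dpp4-type clusters. Of that sum 152 CPM came from Sox9, and Comp, Acan, Col2a1 and 3 others were at 0 in committed cells.

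F3-type cells combined the most Bgn with the least Prelp and Aspn. Bgn was 4.26-fold above Dpp4-type cells (log2 2.09, 2.05 to 2.13) and was the only one of 8 members called, beside 10.2% of all genes. Prelp, which anchors basement membrane to connective tissue, stood at 114 and 92.2 CPM in the libraries (log2 -0.84). Aspn, which encodes asporin, a class I protein without a glycosaminoglycan chain, stood at 339 and 337 CPM (log2 -0.72), and Ogn at 262 and 234 CPM (log2 -0.61). These 3 were below their Dpp4-type levels in both libraries without reaching 2-fold. Omd rested on 21 UMIs (log2 -0.98), with 9.03 CPM in library 1 and 2.73 CPM in library 2, and Podn (log2 0.85) on 106 UMIs. Taken alone, library 1 called Podn as well (log2 1.08) and library 2 called Omd (log2 -2.08), so the count was 2 in each, beside 11.2% and 11.3% of genes. Of 5 Schwann cell markers, 2 were raised in F3-type cells, while Sox10 and Cdh19 were at 0 there, and their part in these values was not tested.

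Of the unnamed clusters, cluster 4 had a Bgn level between those of committed and F3-type cells, together with the highest Aspn. Bgn was 3.59-fold above Dpp4-type cells (log2 1.85, 1.81 to 1.88), the only call among 8 members beside 5.85% of all genes. Aspn was at its highest level of any cluster there, 778 CPM in library 1 and 681 CPM in library 2 (log2 0.40), as was Dcn at 7030 and 7495 CPM (log2 0.28). Podn stood at 29.5 and 31.1 CPM (log2 0.89). Ogn differed by log2 0.10, and this sign turned negative with other filters and clusterings. Immediate early and heat shock genes, a list added after the data were seen, summed to 11112 CPM in cluster 4 against 3355 and 6712 CPM in Dpp4-type clusters 0 and 2. Their part in the level of Bgn was not tested.

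In cluster 3 none of the 8 members was called, beside 2.60% of all genes. Bgn was 1.83-fold higher there (log2 0.87, 0.84 to 0.91) and passed 2-fold only with the stricter cell filter (log2 1.06). In cycling cells none was called with total count scaling, beside 7.42% of all genes, and every measured member but Bgn (log2 0.58) had a value below 0. TMM scaling, which moved the median of all genes from 0.12 to -0.07 in that comparison, called Ogn (log2 -1.01) and Omd (log2 -1.15) lower, beside 6.50% of genes, and library 1 alone called Omd with total count scaling (log2 -1.26, on 7 UMIs), beside 9.19%. Ogn stood at 214 CPM in library 1 and 210 CPM in library 2 of the cycling cells, below every other precursor cluster of the same library.

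**Figure D3:**
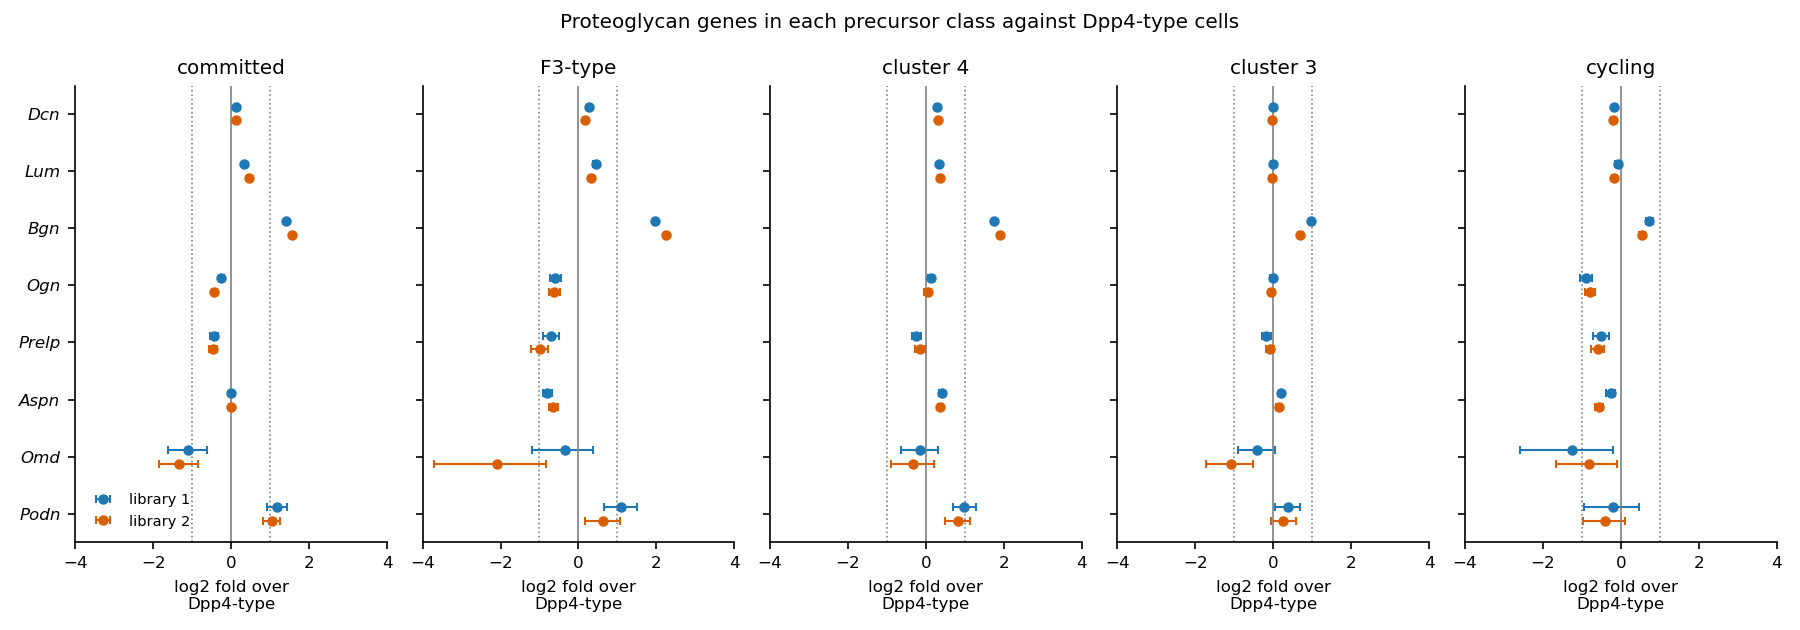
Log2 fold of 8 members in each precursor class over Dpp4-type cells (total count scaling), library 1 in blue and library 2 in orange, with 95% intervals for counting error; dotted lines mark 2-fold. Bgn lies past 2-fold in committed, F3-type and cluster 4 cells of both libraries, while Prelp lies below 0 in all 5 classes and Omd has wide intervals.

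Fibromodulin, a class II relative of lumican that is abundant in tendon, was close to absent. It had 126 UMIs in 6760 precursor cells, 1.61 CPM in library 1 and 1.40 CPM in library 2. Its highest level was 4.99 CPM (18 UMIs, interval 2.96 to 7.89 CPM) in F3-type cells, and its lowest precursor level 0.256 CPM (4 UMIs) in Dpp4-type cluster 2. Clusters 7 and 8 had no Fmod UMI, which allows up to 5.98 and 3.85 CPM, so background from free RNA was not distinguishable from the lower levels.

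UMIs in the clusters outside the lineage have to be set beside the other shares of cells with a UMI. They may come from free RNA in droplets or from doublets, which was not tested. Dcn was found in 100% of thinned precursor cells, but also in 97.4% of endothelial-like and 100% of macrophage and erythroid cells, at 1184 and 2103 CPM against 5249 to 7229 CPM in the precursor clusters. Ogn was found in 89.6% of thinned Dpp4-type and 81.1% of committed cells, against 39.5% and 70.6% in clusters 8 and 7. Omd had a UMI in 8.18% of thinned Dpp4-type and 3.26% of committed cells, against 0 of 38 and 2.94% of 34 cells in clusters 8 and 7. Podn had one in 11.2% and 23.0%, against 7.89% and 2.94%.

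The members were also followed along a marker axis, built from the marker lists that named the clusters but without the clusters themselves. Each precursor cell was scored by its mean level of committed less Dpp4-type markers, and the cells were cut at quintiles into 5 bins of 1352 cells. Bin 1 held 1284 Dpp4-type cells, and bin 5 held 1012 committed and 0 Dpp4-type cells. The axis is therefore no independent check of the difference between these classes. Bin 3 held 693 Dpp4-type and 14 committed cells, and bin 4 held 24 and 405, beside cells of the other classes. The mix of classes thus changed between bins 3 and 4, and its part in the levels was not tested. Bgn stood at 377, 452, 711, 1242 and 1292 CPM from bin 1 to bin 5, with the largest step between bins 3 and 4. Between bins 5 and 1 it differed by log2 1.78 (1.74 to 1.82), by 1.69 in library 1 and 1.86 in library 2. Podn went from 15.4 to 37.2 CPM (log2 1.27) and Omd from 13.3 to 4.44 CPM (log2 -1.59), so that 3 of 8 members passed 2-fold, beside 10.8% of 7057 genes. Prelp was lower at each step, from 193 to 127 CPM (log2 -0.60), and Ogn went from 397 to 285 CPM (log2 -0.48). Lum stayed between 1092 and 1110 CPM in bins 1 to 3 and reached 1490 CPM in bin 5 (log2 0.45). Dcn (log2 0.12) and Aspn (log2 -0.06) differed least. The median depth fell along the axis from 13531 to 11038 UMIs, and with thinned cells the log2 value of Bgn was again 1.78.

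**Figure D4:**
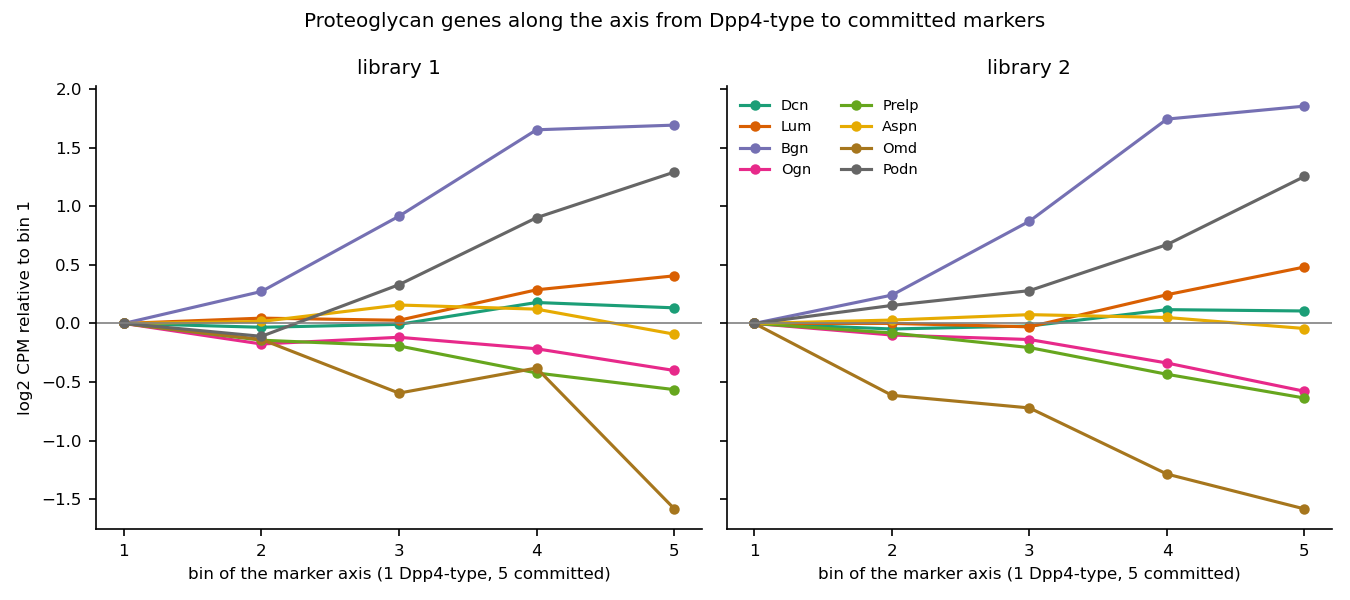
Log2 CPM of 8 members relative to bin 1 of the marker axis (5 bins of equal cell number over both libraries together, with each library's cells of those bins on its own panel). In both libraries Bgn and Podn end above 1 and Omd below -1, Ogn and Prelp end between -0.40 and -0.64, and Dcn, Lum and Aspn stay within 0.48 of bin 1.

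Between the libraries, Bgn was the member that differed most. Over all precursor cells it stood at 909 CPM in library 1 and, scaled by TMM, at 666 CPM in library 2 (log2 -0.45, -0.47 to -0.43). This was under the 1.5-fold set for a call: none of the 7 members measured was called, beside 0.694% of 6768 genes. A difference at least as large as that of Bgn was found in 76 of 6773 genes, 1.12%. Bgn was lower in library 2 in all 6 classes, by log2 values from -0.16 in F3-type cells to -0.71 in cluster 3, where it was called (beside 2.80% of genes), as it was in cycling cells (log2 -0.63, beside 4.38%). Aspn (log2 -0.22 over precursor cells) and Ogn (log2 -0.21) were also lower in library 2 in all 6 classes, the weakest values being -0.0024 in F3-type cells for Aspn and -0.014 in cycling cells for Ogn; with DESeq2 size factors Aspn was higher in library 2 in F3-type cells (log2 0.04). Of all genes tested, 6.01% were lower in all 6 classes.

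Dcn (log2 0.05), Lum (log2 0.004) and Prelp (log2 -0.03) were nearly level between the libraries, and Podn was at 21.3 and 22.9 CPM. The Bgn difference held at fixed position on the marker axis, with 441 and 322 CPM in bin 1 and 1426 and 1165 CPM in bin 5 of libraries 1 and 2. In endothelial-like cells (cluster 8, with mixed markers) Bgn stood at 434 CPM in library 1 and 410 CPM in library 2, with intervals that overlap. Library and diet cannot be told apart from any other difference between the 2 captures, and the labels used here do not say which diet either library had.

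**Figure D5:**
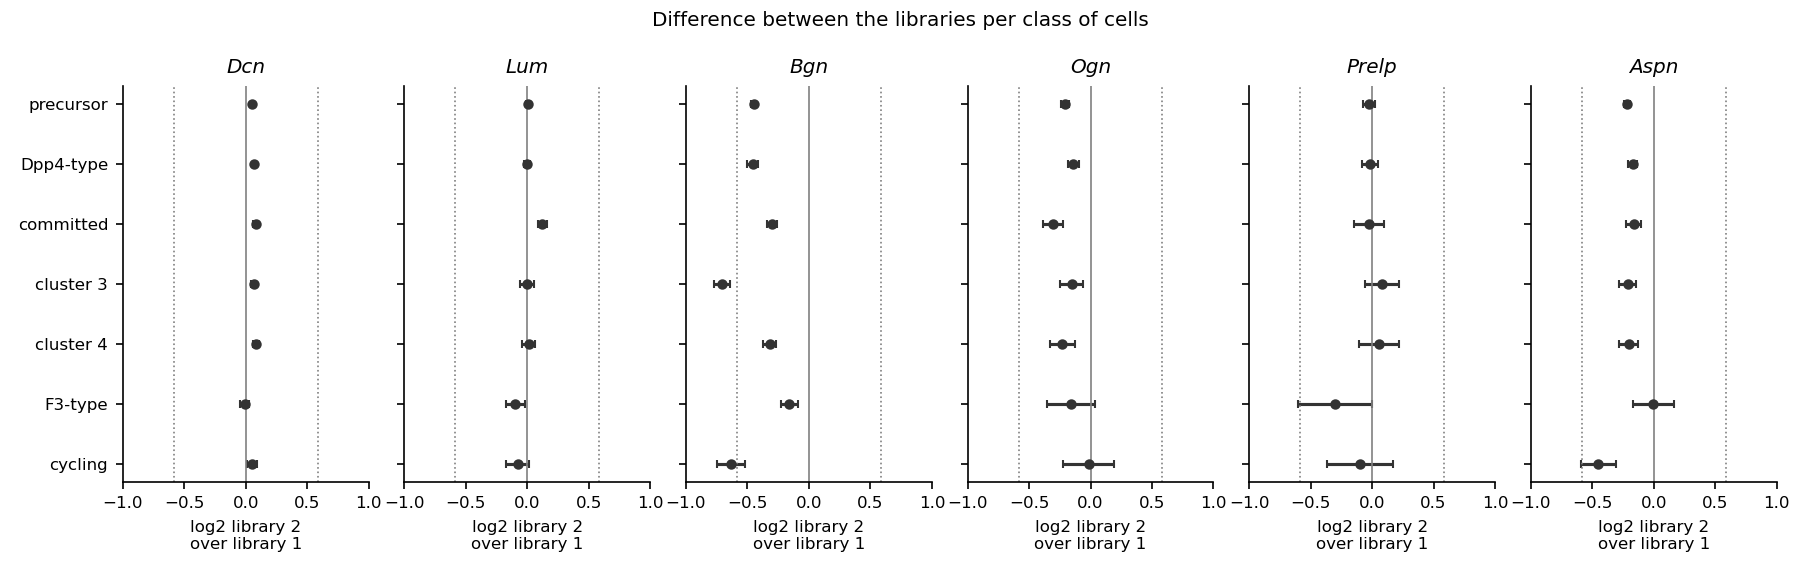
Log2 ratio of library 2 over library 1 (TMM scaling) for 6 members over all precursor cells and in each class, with 95% intervals for counting error; dotted lines mark 1.5-fold. Every Bgn point lies below 0, with cluster 3 (-0.71) and cycling cells (-0.63) past the dotted line, and the Dcn points lie between -0.0074 and 0.081.

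Bgn lies on the X chromosome, so cells were also split by sex chromosome transcripts. There were 2810 cells with 4 or more Xist UMIs and no UMI of Ddx3y, Eif2s3y, Kdm5d or Uty, and 1862 with 1 Xist UMI at most and a UMI of these Y-linked genes. Bgn stood at 804 CPM in the former and 758 CPM in the latter (log2 0.09, 0.06 to 0.11). Within Dpp4-type cells the value was 0.04 (-0.02 to 0.09) and within committed cells 0.02 (-0.03 to 0.07), neither beyond counting error. No member measured was past 1.5-fold, beside 0.178% of 6750 genes. Xist-positive cells made up 66.6% of the cells so classed among committed cells of library 1 and 58.6% in library 2, and the part of this in the library difference of Bgn was not tested.

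The members fell into groups by their pattern over the 14 sums of 7 precursor clusters and 2 libraries, which share depth and free RNA within a library and are given with Pearson r as a description. Dcn and Lum, neighbours on chromosome 10, went together (r = 0.90), and Lum and Podn did so too (r = 0.92). Ogn went with Aspn (r = 0.83), with Prelp (r = 0.81) and with its neighbour Omd (r = 0.72), while the adjacent Aspn and Omd had r = 0.46. Bgn went with Lum (r = 0.78) and Podn (r = 0.76). Between the groups, r ran from -0.65 (Bgn and Prelp) to 0.28 (Dcn and Ogn), with 0.01 for Lum and Aspn. The groups were thus not opposed throughout.

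Among 5900 genes ranked, those with a pattern most like Bgn were Zim1 (r = 0.97), Cygb, which encodes the oxygen-binding protein cytoglobin (r = 0.96), and Tmem119 (r = 0.96). For Dcn they included Fkbp7 (r = 0.95) and Ctsk, the collagen-degrading cathepsin K (r = 0.93). Ctsk also led for Lum (r = 0.96), followed by Cd302 and Serpinf1. For Ogn they were Lamtor4, Uqcc3 and Ly6a, for Prelp Ly6c1, Ccdc12 and Galnt16, and for Aspn they included Smim1 and Asah1, all with r between 0.90 and 0.94.

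From cell to cell within a class, only a few members varied together. In Dpp4-type cells Dcn and Lum had r = 0.37 in library 1 (1508 cells) and 0.34 in library 2 (1686 cells), and 0.28 and 0.23 after thinning. Ogn and Aspn had r = 0.22 and 0.18 (0.13 and 0.12 after thinning), and Dcn and Aspn 0.18 and 0.27 (0.12 and 0.16). Bgn and Dcn had r of -0.02 in library 1, and after thinning 0.01 and -0.03. In committed cells Dcn and Lum had r = 0.26 and 0.27 (0.19 and 0.21 after thinning), and Dcn and Bgn 0.15 and 0.16 (0.14 and 0.067). All are weak, and in sparse counts a value near 0 shows little.

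Of the 9 other genes of the family, 3 reached 10 CPM. Ecm2, which lies next to Aspn (chr13:49504810-49532789), had 53.0 CPM over precursor cells, Tsku 16 CPM and Chadl 10.9 CPM. Optc stood at 2.12 CPM, Kera, Epyc and Podnl1 were each under 1 CPM, Nyx had 1 UMI and Chad none. Between committed and Dpp4-type cells none of the 3 measured was called, with Ecm2 nearest: the Dpp4-type level was 36.1 CPM and the committed level 70.3 CPM (log2 0.96), and Ecm2 was called higher after TMM scaling (log2 1.07). In F3-type cells Ecm2 reached 120 CPM and was called (log2 1.73), while its neighbour Aspn had a log2 value of -0.72 there.

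Genes related to the building, cutting or binding of these proteoglycans were described from lists for the comparison of committed with Dpp4-type cells. In it 11 of 59 measured genes, 18.6%, were called in all, beside 9.65% of all genes. TMM scaling called 12 of 60, of which 8 were among the 11: the calls of Chst12, Col14a1 and Has1 were lost, and Ecm2, Col6a3, Pcolce and Sdc1 were called higher. None of 3 measured genes of the linkage region that starts each chain was called (median log2 -0.02, beside -0.14 over all genes), with B3gat3 at 25.8 and 26.0 CPM and Fam20b at 14.1 and 13.9 CPM in Dpp4-type and committed cells. Of 9 genes of the chondroitin and dermatan sulfate chain (median -0.42), Chst12, a chondroitin 4-sulfotransferase, was called lower, at 74.2 against 35.4 CPM (log2 -1.07, and -0.96 after TMM scaling, no longer called). Of 3 keratan sulfate genes (median -0.73), Chst1, a keratan sulfate sulfotransferase, was called lower, at 36.5 against 4.91 CPM (log2 -2.89), and B4galt1 stood at 89.1 and 88.9 CPM.

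Of 12 fibrillar and associated collagens (median -0.02), 1 was called: Col14a1, lower at 1227 against 605 CPM (log2 -1.02). It was not called after TMM scaling (log2 -0.91) or in library 1 alone (log2 -0.95). The fibrillar collagens Col1a1 and Col1a2 were lower in committed cells (log2 -0.63 and -0.64) and Col3a1 differed by -0.16, in the comparison in which Bgn was higher and Dcn nearly level. Col6a3, which encodes a chain of the beaded collagen VI that binds biglycan and decorin, stood at 656 and 1292 CPM (log2 0.98), just under 2-fold, and was called higher after TMM scaling (log2 1.09).

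Of 9 proteases that cleave these proteoglycans or process matrix (median 0.17), Adamts4 (42.8 against 198 CPM, log2 2.21), Mmp3 (12.0 against 71.2 CPM, log2 2.56) and Htra1 (329 against 679 CPM, log2 1.04) were called higher in committed cells. Adamts5, the other aggrecanase, was called lower (437 against 144 CPM, log2 -1.61). Bmp1, which trims the propeptide of biglycan, stood at 319 and 198 CPM (log2 -0.69). Pcolce, an enhancer of Bmp1 on procollagen, stood at 1438 and 2741 CPM (log2 0.93). In F3-type cells Mmp3 reached 202 CPM (log2 4.07).

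A list of 12 measured genes held receptors and ligands of these proteoglycans and receptors of TGF-beta (median -0.15). Of these, Tgfbr2 (276 against 111 CPM, log2 -1.31) and Tgfb2 (37.7 against 11.6 CPM, log2 -1.70) were called lower and Tgfb1 (7.81 against 19.4 CPM, log2 1.31) higher. Tlr2, a receptor of free biglycan, stood at 28.2 and 16.8 CPM (log2 -0.75), and Lrp1 at 312 and 272 CPM. Of 8 other proteoglycan and hyaluronan genes (median -0.21), the hyaluronan synthase Has1 was called lower (575 against 271 CPM, log2 -1.09, but -0.98 and not called after TMM scaling), and is also among the leading genes of Dpp4-type cluster 0. Vcan, the large proteoglycan versican, stood at 152 and 181 CPM.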

How the data were processed

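The authors deposited 1 joined matrix of raw UMI counts (whole numbers, no normalization). The submitters' processing notes name Cell Ranger, Seurat 3.0.1 and the mm10 build, without the part each had. The 9 genes and the gene lists were chosen with earlier results of these data known. Barcodes were kept from 500 detected genes upward, with mitochondrially encoded counts no higher than 10%. Scrublet, as in scanpy 1.11.5, predicted 12 doublets (0.174%), too few for the caller to be taken as having worked, so doublets remain. The libraries shared 17 barcode sequences.

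Cells were normalized to 10000 counts and log-transformed, and 2000 variable genes (without members, lists and markers), 30 components, 15 neighbours and Leiden resolution 0.5 (leidenalg 0.10.2) gave the clusters. Raised markers had 20 CPM or more and 2-fold or more over the median of the other clusters. A name needed 3 raised markers, at least 33.3% of its list, and 2 markers among the top 20 genes by fold. This naming rule replaced, after the data were seen, one that compared with all other cells and left the progenitors unnamed because they form 2 clusters. Listed genes Ccn4 and Trac were not found by symbol.

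Sums of counts over the cells of a class and library were compared between classes on the CPM scale, and between libraries with TMM scaling (edgeR 4.0.16, used for scaling only). Intervals are exact Poisson, conditional exact (ratios) and Clopper-Pearson (shares) at 95%. Named genes were all members, listed genes past 2-fold with at least 50 CPM (up to 5 per list and direction, otherwise the 2 highest), the 3 most similar genes per member by log2(CPM + 5) with at least 20 CPM, and 5 leading genes per cluster. A few genes that this rule names are not reported here. Further listed genes were chosen after their values were seen. On simulated sums of committed and Dpp4-type cells (6675 genes tested), 100% of 100 genes given a 3-fold change and 0% of 100 genes given a 1.5-fold change were called past 2-fold. The sums were Poisson draws from 1 pooled profile without spread between cells or libraries, and the 2-fold cut lies between the folds given. The simulation therefore checks only the arithmetic of the rule. Of 9 members, 7 matched the RefSeq promoter table.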

Additional observations from a re-analysis of the deposited data

How the results depend on the processing

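No paired analysis was possible because each diet has 1 library and no result comes from a test. The classes, compared within each library, are given for library 1 and library 2 alone. Alternatives changed the cell filter, doublets, clustering, scaling, level minimum, depth, library and reference cluster, the last chosen after seeing the data. Of 520 values of single members, 507 kept their sign. Values at another level minimum equal the main value by construction and could not turn. Only 353 of the 520 lay within the counting interval of the main value, while 162 moved outside it and 5 reversed. The log2 value of Bgn in committed cells ran from 1.39 to 1.60 over 14 alternatives, a wider range than its counting interval. Of the 13 that turned, 8 belong to differences whose interval spans 0 and lay between -0.11 and 0.12 (Aspn in committed cells, Lum and Ogn in cluster 3, Lum between the libraries). The other 5 were Dcn in cluster 3 (0.015 with Dpp4-type cluster 0 as the reference) and Ogn in cluster 4 (-0.020 with the stricter cell filter, -0.13 with predicted doublets kept, -0.20 at Leiden resolution 1, -0.031 with cluster 2 as the reference). The committed count of 3 was 1 at a 50 CPM minimum, since Podn and Omd lie under it. The F3-type count of 1 was 2 with no minimum, in each library alone, at Leiden resolution 1, with 3000 variable genes, with the lists admitted to the variable genes and with cluster 2 as the reference. The cluster 4 count of 1 was 2 with no minimum. The cluster 3 count of 0 was 1 in library 2 alone and with the stricter cell filter. The Bgn difference between Xist-positive and Y-positive cells was 0.12 with a looser class rule and 0.053 in library 1 alone. The Dcn and Lum correlation, 0.36 over both libraries, was 0.25 in thinned cells. The cycling count of 0 was 2 with TMM or DESeq2 scaling and 1 in library 1 alone. The other counts of members, and the 11 listed genes over all lists (8 to 12), were within 1.5 times their values, but single lists changed: after TMM scaling the collagens and the other proteoglycans each had 1 call higher in place of 1 lower, and the chondroitin chain had none. Depth limits Omd, Podn and Fmod, and UMIs that may come from free RNA or doublets limit shares of cells.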
